A study of Rattus norvegicus with 4 samples.

Results

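Triglyceride in a fat cell is built on glycerol 3-phosphate and, when it is broken down, leaves free glycerol behind. White fat cells make much of their glycerol 3-phosphate from pyruvate and other non-sugar precursors, a route called glyceroneogenesis, and they also draw it from glucose by reducing dihydroxyacetone phosphate. Free glycerol leaves through an aquaglyceroporin, because white fat has little glycerol kinase with which to use it again.

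The 6 genes described here are Pck1, Pc, Gpd1, Gk, Aqp7 and Slc25a1. They were taken by name, with every probe set (a group of short probes read as 1 value) to which the platform's annotation gives that single symbol. This found 7 probe sets, 2 for Gpd1 and 1 for each other gene, among 15866 probe sets and 10411 named genes. Pck1 encodes cytosolic phosphoenolpyruvate carboxykinase, the committed enzyme of glyceroneogenesis. Pc encodes pyruvate carboxylase, which makes the oxaloacetate that Pck1 uses. Gpd1 encodes the cytosolic glycerol 3-phosphate dehydrogenase. Gk encodes glycerol kinase and Aqp7 the glycerol channel of fat cells. Slc25a1 encodes the mitochondrial citrate carrier, which exports citrate made from oxaloacetate and acetyl-CoA.

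RNA of visceral fat from male Wistar rats aged 130 days was measured on 4 arrays, 2 from control and 2 from obese samples. The labels do not say how obesity arose, which diet or strain background separated the groups, or how many animals went into a sample, so p-values cover the spread between the arrays alone, part or all of which can be technical. Signals are the deposited intensities on a linear scale. A floor of 20.8 was set under dim signals, and tests were limited to probe sets above it on 2 or more arrays, which left 12929 probe sets of 9012 genes. The arrays had medians of 75 to 83.1 over the 15866 probe sets, the lowest on obese replicate 2. Fat cell markers spanned a wide range of signal, from Cfd (adipsin), between 3346.2 and 3533.9 on the 4 arrays, down to Slc2a4, between 75 and 141.1. Leptin, Lep, a hormone whose transcript usually increases with fat cell size, had signals of 597.4 and 330.2 in control and 539.5 and 1256.4 in obese samples, so the groups overlapped.

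The RefSeq promoter table of assembly GRCr8 held 3 of the 6 genes, Pck1, Gk and Slc25a1. The 250 bases before the annotated start are shown for Pck1 and Slc25a1, the measured genes among them. Pck1 lies on the plus strand of chromosome 3 (chr3:182348322-182348571) and Slc25a1 on the plus strand of chromosome 11 (chr11:96559804-96560053). Capitals mark every match on either strand to the TATA box letters TATAAA, the CCAAT box, the cyclic AMP response element core ACGTCA, the E-box CACGTG, the nuclear receptor half-site AGGTCA and the GC box GGGCGG. No marked matches overlap.
Pck1: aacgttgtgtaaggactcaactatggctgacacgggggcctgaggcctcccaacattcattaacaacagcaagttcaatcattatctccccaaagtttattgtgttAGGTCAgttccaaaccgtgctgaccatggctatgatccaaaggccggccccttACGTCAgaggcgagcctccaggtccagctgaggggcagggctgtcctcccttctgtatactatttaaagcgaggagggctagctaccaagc
Slc25a1: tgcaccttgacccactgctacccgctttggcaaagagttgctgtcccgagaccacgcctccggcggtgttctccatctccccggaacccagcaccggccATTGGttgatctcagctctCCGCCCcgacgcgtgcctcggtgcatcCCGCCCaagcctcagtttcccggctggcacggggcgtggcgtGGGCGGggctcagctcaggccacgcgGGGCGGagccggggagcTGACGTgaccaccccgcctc
The Pck1 stretch held AGGTCA at -144 to -139 and ACGTCA at -91 to -86, counted from the start, and none of the other 4 motifs. The Slc25a1 stretch held ACGTCA on the minus strand at -20 to -15, CCAAT on the minus strand at -151 to -147, and 4 matches to GGGCGG. The letters ACGTCA also lay in the Gk stretch, so 3 of 3 held them, against 6.95% of all 33469 promoters in the table. AGGTCA was in 14.1%, CCAAT in 34% and GGGCGG in 30.5% of them. These matches describe letters and say nothing of a factor bound there.

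The comparison asked whether transcripts of this pathway differed between obese and control visceral fat. Aqp7, Gpd1, Pc and Slc25a1 had higher signals on both obese arrays than on both control arrays, by 1.32-fold to 1.50-fold on average, while the groups overlapped for Pck1. Gk was too dim to test. No gene of the 6 passed limma's test adjusted over all probe sets at 0.05 (adjusted p = 0.522 to 0.895), and neither did any other, 0 of 12929 probe sets or 0% (1073 probe sets, 8.3%, had an unadjusted p under 0.05). Of the 5 tested genes 4 were separated upwards, where 16.4% of all 9012 tested genes were, and none downwards, where 24% were. All 5 had a higher obese mean, as did 43.4% of all tested genes, and 2 of the 5, Pc and Aqp7, were higher with an unadjusted p under 0.05, as were 3.33% of all. The median log2 difference was 0.42 for the 5 genes and -0.04 over all tested genes. The genes were chosen with earlier results of these data known, so these counts and medians describe them and are not a test. The median of the 5 genes was 0.27 without obese replicate 2, and 0.12 with the arrays centred on adipocyte markers, a scaling described with those markers. The smallest two-sided p that an exact permutation test of 2 against 2 arrays allows is 0.333, and that test was not used.

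**Figure D1:**
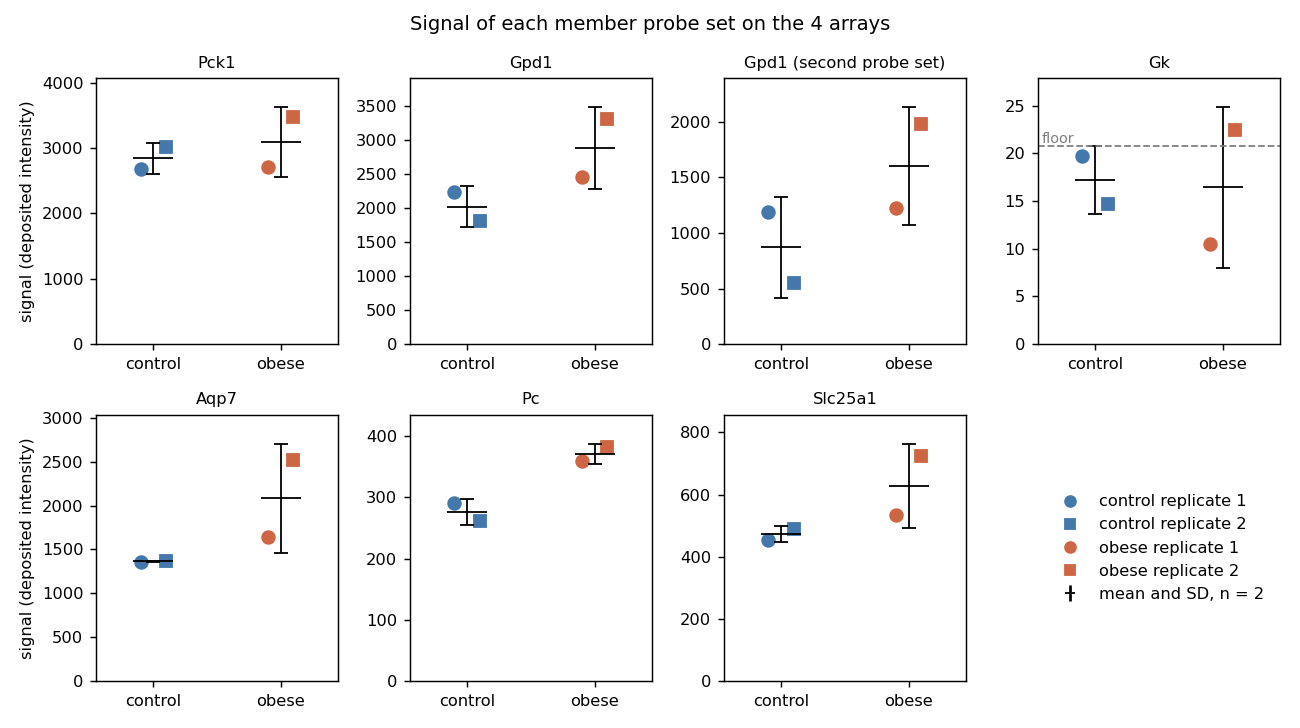
Deposited signal (vertical axis, linear intensity from 0, with a scale of its own in each panel) of the 7 probe sets on the control arrays (blue) and obese arrays (orange); circles are replicate 1, squares replicate 2, bars the mean and SD of 2 arrays. Both obese points lie above both control points for Gpd1 (both probe sets), Aqp7, Pc and Slc25a1, the points of Pck1 overlap, and 3 of the 4 points of Gk lie under the dashed floor of 20.8.

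Pck1, the enzyme that turns oxaloacetate into phosphoenolpyruvate, had signals of 2672.6 and 3008.1 on the control arrays and 2712.4 and 3471.2 on the obese arrays. Obese replicate 1 lay between the control arrays and obese replicate 2 above both. The means were 2840 ± 237 (SD, n = 2) in control and 3092 ± 537 in obese samples. The log2 difference was 0.11 ± 0.19 (SE; limma adjusted p = 0.895), a ratio of 1.08 with a 95% interval from 0.788 to 1.49. These arrays therefore do not show a difference in Pck1, and the interval covers both a lower level and an increase of up to 1.49-fold. The sign itself depended on obese replicate 2, since the difference was -0.06 without that array.

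Pc, the mitochondrial carboxylase that supplies oxaloacetate, had signals of 291.5 and 261.8 in control and 359.1 and 383 in obese samples. Both obese arrays were higher than both control arrays, and the replicates lay close together, at 276.6 ± 21 and 371 ± 16.9 (SD, n = 2). The log2 difference was 0.42 ± 0.13, a ratio of 1.34 with a 95% interval from 1.08 to 1.68 (limma unadjusted p = 0.018, adjusted p = 0.522). It was the smallest p of the 5 tested genes and did not pass over all probe sets. Leaving out each array in turn gave 0.35 to 0.50.

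Gpd1, which reduces dihydroxyacetone phosphate to glycerol 3-phosphate and so serves both the glucose route and glyceroneogenesis, was read by 2 probe sets. The main one, with the higher mean signal, gave 2231.2 and 1804.5 in control and 2449.2 and 3303 in obese samples. Obese replicate 1 exceeded control replicate 1 by a small margin. The log2 difference was 0.50 ± 0.21, a ratio of 1.42 with a 95% interval from 0.993 to 2.02 (limma unadjusted p = 0.0535, adjusted p = 0.613). It was 0.29 without obese replicate 2.

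The second Gpd1 probe set gave 1190.1 and 550.3 in control and 1225.6 and 1978.5 in obese samples. The order of the 4 arrays was the same as with the main probe set, with control replicate 2 lowest and obese replicate 2 highest. Its log2 difference was 0.94 ± 0.40 (limma adjusted p = 0.615), with an interval from -0.05 to 1.94. The size rested on control replicate 2, since it was 0.39 without that array and 1.50 without control replicate 1. Both probe sets gave a higher obese mean, and they disagreed on its size.

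Aqp7, the channel through which glycerol leaves the fat cell, had signals of 1358.6 and 1366.7 in control and 1645.5 and 2525.9 in obese samples. The control arrays were almost equal, and the obese arrays differed from each other by a ratio of 1.53. The means were 1363 ± 5.73 (SD, n = 2) and 2086 ± 623. The log2 difference was 0.58 ± 0.22, a ratio of 1.50 with a 95% interval from 1.02 to 2.19 (limma unadjusted p = 0.0415, adjusted p = 0.581). It was the largest of the 5 main differences, and 2.31% of all tested genes had a higher one. Without obese replicate 2 the difference was 0.27, and without obese replicate 1 it was 0.89.

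Gk, which phosphorylates glycerol, had signals of 19.7 and 14.7 in control and 10.5 and 22.4 in obese samples. Only obese replicate 2 lay above the floor of 20.8, so Gk was not tested and has no fold. Its probe set gives only an upper bound near the floor in both groups, which does not show that the transcript was absent.

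Slc25a1, which carries citrate out of the mitochondrion, had signals of 453.6 and 490.5 in control and 533.1 and 724.4 in obese samples. The groups did not overlap, and obese replicate 2 stood well above the other arrays. The log2 difference was 0.40 ± 0.18, a ratio of 1.32 with a 95% interval from 0.974 to 1.78 (limma unadjusted p = 0.0671, adjusted p = 0.625). Without obese replicate 2 it was 0.18.

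Obese replicate 2 had the highest signal of the 4 arrays for all 5 tested genes, Aqp7, Gpd1, Pc, Pck1 and Slc25a1, as it had for 23.4% of all tested genes. It lay above obese replicate 1 for 42.5% of all tested genes. Against the mean of the control arrays, it was higher by log2 values of 0.29 for Pck1, 0.47 for Pc, 0.62 for Slc25a1, 0.72 for Gpd1 and 0.89 for Aqp7. Obese replicate 1 differed from that mean by -0.06 for Pck1, 0.18 for Slc25a1, 0.27 for Aqp7, 0.29 for Gpd1 and 0.38 for Pc. Among the main probe sets, the obese arrays lay closest on Pc, 0.09 apart on the log2 scale, and farthest apart on Aqp7, 0.62. On the second Gpd1 probe set they lay 0.69 apart. Over all tested genes the median difference from the control mean was -0.01 for obese replicate 1 and -0.07 for obese replicate 2.

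**Figure D2:**
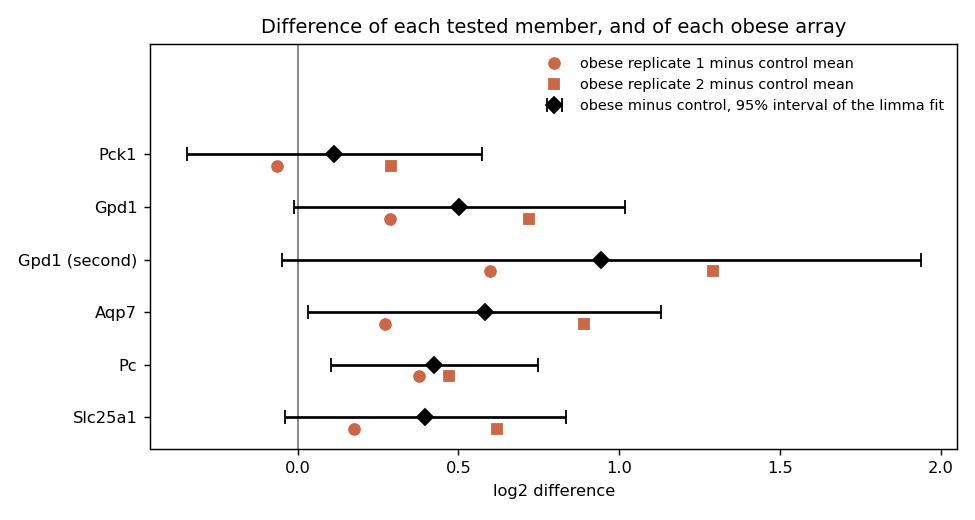
Log2 difference (horizontal axis) of the 6 tested probe sets: black diamonds are obese minus control with the 95% interval of the limma fit, orange circles and squares are obese replicates 1 and 2 minus the control mean. Obese replicate 2 lies to the right of obese replicate 1 on every line, from 0.09 for Pc to 0.62 for Aqp7 and 0.69 for the second Gpd1 probe set. The intervals of Pc and Aqp7 lie above 0 before adjustment.

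**Figure D3:**
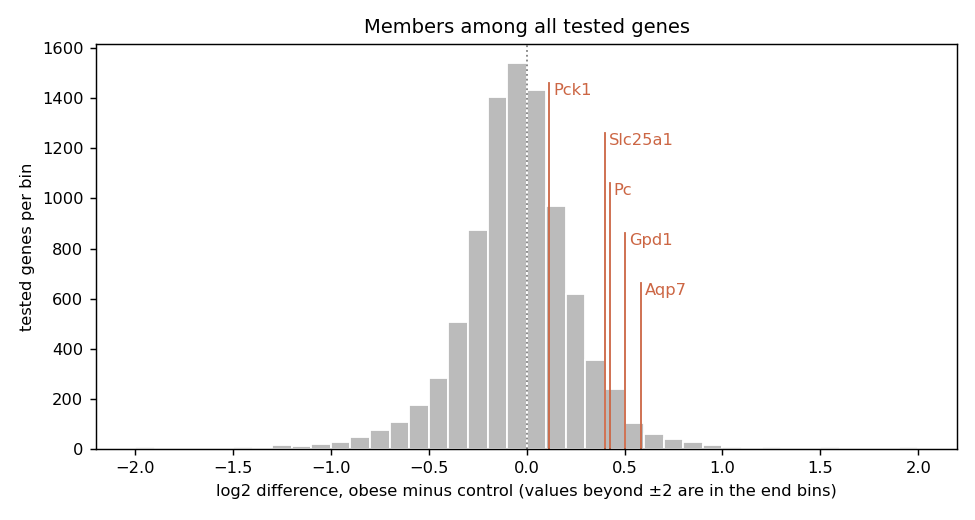
Number of tested genes (vertical axis) in bins of the log2 difference, obese minus control (horizontal axis), 1 probe set per gene, with orange lines at the 5 tested genes. Aqp7, Gpd1, Pc and Slc25a1 lie in the right shoulder of the 9012 genes, between 0.40 and 0.58, and Pck1 at 0.11 lies inside the bulk.

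The summed adipocyte markers were also highest on obese replicate 2. For the 9 measured markers the sum was 12877 and 12632 in control and 12894 and 15901 in obese samples. Of the 9, 7 had a higher obese mean, with a median log2 difference of 0.17, and 3 were separated upwards, where 16.4% of all tested genes were. The differences ran from -0.04 for Cd36, -0.02 for Cfd and 0.04 for Pparg to 0.62 for Plin4, 0.63 for Slc2a4 and 0.89 for Lep. The mean log2 signal of these markers was higher in obese samples by 0.31, to which Plin4, Slc2a4 and Lep contributed most. It was higher by 0.14 on obese replicate 1 and by 0.48 on obese replicate 2. With each array centred on that mean, a scaling added after the data were seen that moved the median of all tested probe sets to -0.35, the log2 differences were 0.27 for Aqp7, 0.19 for Gpd1, 0.12 for Pc, 0.09 for Slc25a1 and -0.20 for Pck1. On that scale 2 of the 5 genes, Aqp7 and Gpd1, stayed separated upwards, where 2.01% of all tested probe sets were, and Pck1 was separated downwards, where 51.6% were. In bulk tissue, more fat cells in a sample and more RNA of these genes per fat cell cannot be told apart.

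Markers of other cells differed from list to list. All 14 measured macrophage and myeloid markers had a lower obese mean, and 12 of them were separated downwards, where 24% of all tested genes were. Their summed signals were 13630 and 16425 in control and 9950.5 and 9971.7 in obese samples. The brightest, lysozyme Lyz2, differed by -0.43 on the log2 scale. All 7 tested markers of the lymphocyte list were lower and 4 of them separated, while Cd3g, Cd3d and Cd2 had overlapping groups. The 9 of that list on the array summed to 1557.5 and 1093.6 in control and 740.6 and 619.3 in obese samples. Cd4, the brightest and a large part of each sum, gave 569.1 and 540.8 in control and 303.2 and 270.1 in obese samples. Cd37 gave 221.7 and 227.7 in control and 119.8 and 79.6 in obese samples. In contrast, Cd3g (150.8 and 65.3), Cd3d (77.7 and 26.2) and Cd79b (99.3 and 17.5) were high on control replicate 1 alone. Their obese signals were 74.3 and 70, 28.8 and 23.3, and 13.8 and 8.7, near those of control replicate 2. Mesothelial markers differed within the obese group, with sums of 787.1 and 949.4 in control, 1629 on obese replicate 1 and 366.2 on obese replicate 2, and mesothelin, Msln, gave 590.7 and 164.7 on those obese arrays. The 6 endothelial markers had a median of 0.01, with sums from 1631.2 to 1705.1, and Eng, the brightest, gave 0.06. Within that list Tie1 was separated downwards (-0.45) and Cldn5 upwards (0.26). The muscle list summed to 1473.6 and 1217 in control and 2209.7 and 1541.7 in obese samples. Its brightest gene, Myh1, gave 738.3 on obese replicate 1 against 741.5 and 490.2 on the control arrays. The Myh1 log2 difference was 0.44 with its main probe set and -0.05 to 0.53 with 4 others. Myh11 gave 437.2 and 438.7 in control, 888 on obese replicate 1 and 411.1 on obese replicate 2. Des gave 138.2 and 167.9 in control, 415.3 on obese replicate 1 and 101.3 on obese replicate 2. Of the 6 tested genes 3 were higher and 3 lower, and Tnnt3 (-0.30) alone was separated, downwards. Tnnt3 (46.2 to 67.4), Ckm (33.5 to 53.4) and Actn3 (27.1 to 30.8) were dim, and Acta1 and Myh4 were too dim to test. The part of these cells in the differences of the 6 genes was not tested.

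Markers of liver and kidney, tissues that also express Pck1, Pc and Gk, were mostly dim. Of 11 kidney markers on the array 8 were too dim to test, including Umod (4.5 to 5.3), and the list summed to 160.7 to 180.1 on the 4 arrays, with Lrp2 brightest. The liver list summed to 374.1 to 526.7, and of its 11 markers on the array 3 were too dim, including Apoa1 (1.5 to 4.2) and Tat (1.6 to 2.3). The brightest of that list, Alb, had signals of 107.7, 200.7, 213.2 and 177 on control replicates 1 and 2 and obese replicates 1 and 2, so the groups overlapped. Of its 8 tested genes 6 had a higher obese mean, with a median log2 difference of 0.22. Of all tested genes 16.4% were separated upwards, and of these 8 genes 2 were. These were Cyp2e1, with signals of 42.2 and 44.1 in control and 58.4 and 57.5 in obese samples, and Fgb, with 11 and 17.5 against 28 and 24.9. The part of liver transcripts in the differences of the 6 genes was not tested. Of 6 brown fat markers on the array, Cox8b and Dio2 were too dim to test, and 1 of the 4 tested, Cidea, was separated upwards. Cidea gave 513.9 and 560.2 in control and 663.8 and 1031.2 in obese samples, a log2 difference of 0.62 (limma adjusted p = 0.56). Ucp1 lay between 25.8 and 44, near the floor, with a log2 difference of -0.33. The groups overlapped for Ucp1, Zic1 and Cox7a1.

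Genes that feed or share the same intermediates were grouped into 6 lists, and no gene in any of them passed over all probe sets. For comparison with the counts in each list, 43.4% of all 9012 tested genes were higher, 16.4% separated upwards and 24% downwards. The first list held enzymes around the 3-carbon precursors and glycerol 3-phosphate, with 14 tested genes, 9 of them higher and 5 lower in obese samples. Its median log2 difference was 0.15, with 7 genes separated upwards and 2 downwards. Gpt, alanine aminotransferase, which makes pyruvate from alanine, had the largest difference, with signals of 212.4 and 220.5 in control and 366.5 and 597 in obese samples. That is 1.11 ± 0.24 on the log2 scale (limma unadjusted p = 0.00373, adjusted p = 0.402). Mitochondrial malate dehydrogenase Mdh2 gave 0.59, and cytosolic Mdh1, the brightest gene of the list, gave 0.28 (0.51 with its second probe set). Gpd2, the mitochondrial dehydrogenase that consumes the product of Gpd1, had the lowest value, -0.40 ± 0.19, and -0.58 with its second probe set. Its signals were 67.3 and 74.1 in control and 56.6 and 50.5 in obese samples, separated downwards where both Gpd1 probe sets were separated upwards. Pck2, the mitochondrial partner of Pck1, gave -0.09 with overlapping groups, and Gpam, which joins the first fatty acid to glycerol 3-phosphate, gave 0.12.

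Pyruvate entry into mitochondria and its control formed the second list, in which 8 of 13 tested genes were higher, 7 separated upwards and 2 downwards, with a median of 0.20. Mpc1, a subunit of the mitochondrial pyruvate carrier, had signals of 467.1 and 463.1 in control and 613.1 and 914.1 in obese samples, a log2 difference of 0.69 ± 0.21 (limma adjusted p = 0.515). Its partner Mpc2 gave -0.13 with overlapping groups. Pdha1, the brightest, gave 0.20 (0.26 with its second probe set). Among the kinases that switch off pyruvate dehydrogenase and so leave pyruvate to carboxylation, Pdk4 gave 0.40 with overlapping groups, Pdk1 0.39, Pdk2 -0.03 and Pdk3 -0.49, the lowest of the list.

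The list of other mitochondrial carriers and citrate-using enzymes had 10 of 12 genes higher, 5 separated upwards and 1 downwards, and a median of 0.14. Slc25a11 counted as separated upwards with a log2 difference of only 0.02, from 304.7 and 304.9 in control and 308.8 and 307.4 in obese samples. Slc25a10, the dicarboxylate carrier, which can supply malate for citrate exchange, had the smallest unadjusted p. Its signals were 155.8 and 140.3 in control and 179.4 and 244.3 in obese samples, a log2 difference of 0.50 ± 0.19 (limma adjusted p = 0.581). Malic enzyme Me1 had the largest value, 0.57 ± 0.22, and 0.79 with its second probe set. ATP citrate lyase, Acly, which splits the citrate that Slc25a1 exports, gave 0.21. The brightest gene, the adenine nucleotide carrier Slc25a5, gave 0.21 with overlapping groups, and the aspartate-glutamate carrier Slc25a13 was lowest, at -0.76 ± 0.34. Without obese replicate 2 the list's median was 0.03.

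Among other aquaporins on the array, 5 of 9 were too dim to test, including the glycerol channel Aqp3. The 4 tested ones, Aqp1, Aqp6, Aqp8 and Aqp9, all had overlapping groups and log2 differences between -0.22 (Aqp8) and 0.10 (Aqp1). The water channel Aqp1, mainly a gene of endothelium, was the only bright one, with signals of 1075.5 and 784.5 in control and 1042.8 and 926.1 in obese samples, and its second probe set gave -0.07. Aqp7 was thus the one tested aquaporin whose groups did not overlap.

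The list on glycerol release held lipases and proteins that act with them or inhibit them, so its counts mix opposite roles. It had 7 of 8 genes higher, 4 separated upwards and 1 downwards. The median was 0.19, which was 0.09 without obese replicate 2 and 0.30 without obese replicate 1. G0s2, an inhibitor of adipose triglyceride lipase, had signals of 628.2 and 568.8 in control and 857.8 and 1094.1 in obese samples, a log2 difference of 0.70 ± 0.16 (limma adjusted p = 0.46). Mgll, monoglyceride lipase, which frees the last fatty acid from glycerol, gave 0.41, the droplet protein Plin1 0.35 and the carboxylesterase Ces1d 0.24, each separated upwards. Adipose triglyceride lipase, Pnpla2, gave 0.08, hormone-sensitive lipase, Lipe, 0.14 and lipoprotein lipase, Lpl, the brightest, 0.05, all with overlapping groups. Lysosomal acid lipase, Lipa, an enzyme abundant in macrophages, was lower, at -1.08 ± 0.22 (limma adjusted p = 0.402), with signals of 457.9 and 651.5 in control and 291.7 and 229 in obese samples.

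Transcription factors and cofactors known to act on Pck1, with receptors and substrates of insulin signalling, made up the last list. Of 28 tested genes 16 were higher and 12 lower, 5 separated upwards and 7 downwards, with a median of 0.04. These separated counts lie near the shares over all tested genes, 16.4% upwards and 24% downwards. Cebpb, a basic leucine zipper factor, had the largest difference, with signals of 335 and 346.7 in control and 473.7 and 547.4 in obese samples, or 0.58 ± 0.13 (limma unadjusted p = 0.00503, adjusted p = 0.457). Pparg, the main nuclear receptor of fat cells, gave 0.04, its partner Rxra -0.08 and the glucocorticoid receptor Nr3c1 0.10. Srebf1, the brightest, gave 0.27 (0.13 with its second probe set). Atf3 was lowest, at -1.04 ± 0.34. Creb1, which binds cyclic AMP response elements, gave -0.54 ± 0.18 and the insulin receptor substrate Irs1 -0.59 ± 0.20, both separated downwards. Ppargc1a was too dim to test.

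**Figure D4:**
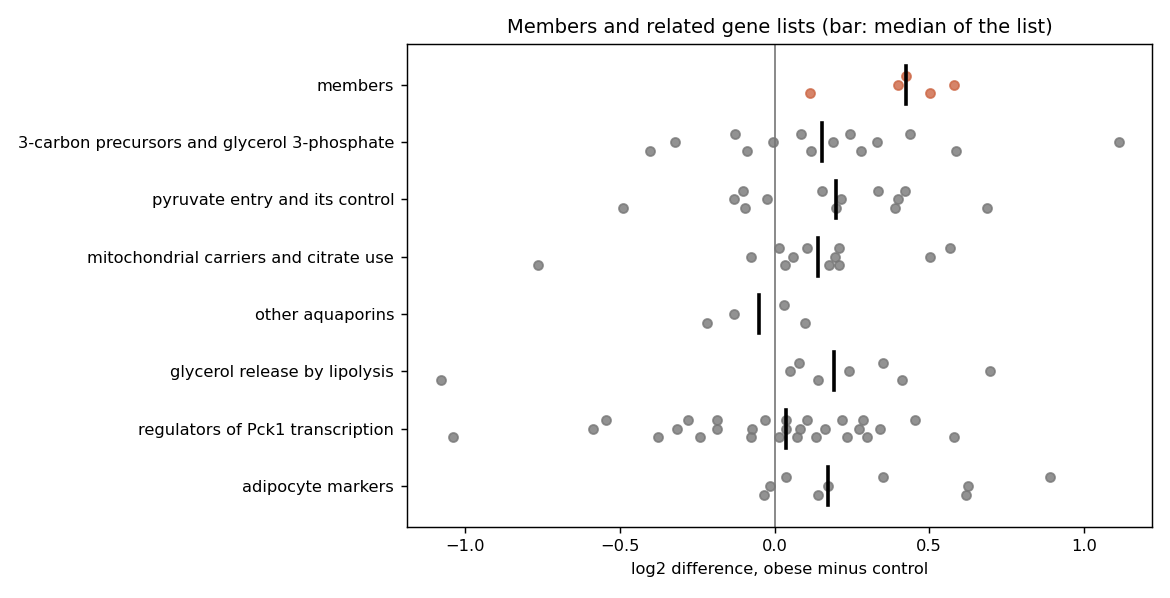
Log2 difference, obese minus control (horizontal axis), of each tested gene of the 5 tested genes (members, orange), the 6 related lists and the adipocyte markers (grey), with a black bar at each median; points are staggered vertically only for legibility. The medians are 0.42 for the 5 genes, 0.20 or less for each grey list, and -0.05 for other aquaporins.

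The genes whose pattern over the 4 arrays was most like that of Aqp7 were Dbi, Pea15 and Rarres2. Likeness was the root mean square difference of log2 signals, each gene centred on its own mean, and it was 0.02, 0.03 and 0.04 for the 3 genes among 9011 compared. Dbi, the acyl-CoA binding protein, had signals of 927.8 and 939.8 in control and 1161.4 and 1796.2 in obese samples. Rarres2, the adipokine chemerin, had 964.5 and 929.7 against 1208.2 and 1769.9, and Pea15 had 308.9 and 301 against 368.7 and 544.6. As follows from how they were chosen, each had nearly equal control arrays and obese replicate 2 well above obese replicate 1, like Aqp7. In all, 50 of the 9011 genes lay within 0.1 of Aqp7, and how many lie as near to other genes was not counted.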

How the data were processed

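The series' value table holds, for each probe set, its intensity on each of the 4 arrays, as deposited and, judging by the values, linear. Scanner, software and normalization: not given in the sources used here. The authors had already scaled these intensities, judging by the 2% trimmed means (150.026 to 150.03), so no scaling was added. Of 15923 probe sets, 57 controls were left out. The platform's annotation gives 12783 of the rest a single symbol, 312 more than one and 2771 no symbol; only single symbols were used as names. Entrez identifiers matched the GRCr8 table for 12748 and changed 0 symbols.

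Signals under 20.8, the 20th percentile of all values, were set to it before log2 was taken, so a dim gene's difference is understated. Obese minus control was fitted with limma 3.58.1 in R 4.3.3 (lmFit, eBayes with trend, 5.83 degrees of freedom), two-sided, with Benjamini-Hochberg adjustment over 12929 tested probe sets. Errors of log2 differences are moderated standard errors. A gene's main probe set is the one with the highest mean signal; separated means that both arrays of a group lie beyond both of the other. Named genes were the 6 genes, and from each list those with the largest and smallest difference, smallest p and highest signal, with some others of known role chosen after their values were seen. The genes and lists were chosen with earlier results of these data known. The code was tested on simulated data. The number of arrays, 2 per group, limits precision.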

Additional observations from a re-analysis of the deposited data

How the results depend on the processing

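The 5 tested genes stayed short of the adjusted threshold of 0.05 under every alternative run (3 scalings, other floors, a pseudocount of 16, other filters, other variance models, the replicate block, each array left out, the mean over probe sets and centring on adipocyte markers). The sign turned for Pck1 alone, to -0.064 without obese replicate 2 (0.292 without obese replicate 1) and to -0.20 centred on the adipocyte markers; the cause was not tested. Over all alternatives the log2 difference ranged from 0.27 to 0.89 for Aqp7, 0.19 to 0.72 for Gpd1, 0.12 to 0.50 for Pc and 0.09 to 0.62 for Slc25a1. The number of separated genes was 3 to 5. It was 3 centred on the adipocyte markers, 2 upwards and Pck1 downwards, and 5, all upwards, without control replicate 2 or without obese replicate 1, where 27% and 28.7% of all probe sets were separated upwards. With the replicate block, replicate number as a term, the differences were the same by construction (0.11 for Pck1, 0.58 for Aqp7) and 0 probe sets passed. The labels do not say whether same-numbered arrays shared more than a number. The correlation of their deviations was 0.05, which cannot settle this with 2 arrays per group.

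Probe sets past the threshold numbered 1 with median centring, 1 without trend, 3 with the pseudocount, 6 without a filter and 198 centred on the adipocyte markers. Probe sets separated upwards and downwards were 15.6% and 24.4%, 22.1% and 16.6% with median centring, and 2.01% and 51.6% centred on the adipocyte markers. Centred on the adipocyte markers, list medians were -0.16 (3-carbon precursors), -0.11 (pyruvate entry), -0.17 (carriers), -0.36 (aquaporins), -0.12 (lipolysis) and -0.27 (Pck1 regulators). The median of all tested probe sets was -0.35 on that scale. Every list median except that of the aquaporins, negative before, thus turned sign. With median centring they were 0.28 for pyruvate entry, 0.12 for Pck1 regulators and 0.03 for aquaporins, whose sign turned there. With 1 array left out the medians were 0.088 to 0.26 for pyruvate entry, 0.030 to 0.21 for carriers and 0.089 to 0.30 for lipolysis. They were -0.23 to 0.18 for aquaporins and -0.042 to 0.031 for Pck1 regulators, so both signs turn with the array left out. Gk entered the test with a floor at the 10th percentile (-0.15 ± 0.44) or without a filter (0.05 ± 0.04), on values at or near the floor.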
